A study of Canis lupus familiaris with 10 samples.

Results

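NDST4 (ENSCAFG00000012211) and SPOCK3 (ENSCAFG00000008936) are 2 of the 31897 genes in the deposited expression table of canine atrial tissue. They were chosen from the list of 20 top DEGs because both were highest in the library CPVA5, whereas the other 18 genes of that list were highest in CPVA3. The name of the list is that of the study and stands for no call made here. By the study's own values, NDST4 met its limit on the corrected p of a DEG and SPOCK3 did not. Their levels over the 10 libraries, and the difference between the groups, were therefore used to choose them, and both are given as a description with no test. RNA was sequenced from beagle canines of either sex, 5 in the CPVA group and 5 in the control group. The CPVA group underwent thoracotomy and circumferential pulmonary vein ablation, in which radiofrequency current was applied point by point around the root of the left pulmonary veins. The control group underwent the same thoracotomy without ablation. Each library came from the target atrial tissue, taken 6 months after the operation. The study places this tissue close to the ablation line and gives no separate site for the controls, which had no such line. The canines are a model of ablation in hearts for which no earlier atrial fibrillation is described.

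Heparan sulfate is a long sugar chain that is attached to core proteins on the cell surface and in the extracellular matrix, where its sulfate groups bind growth factors, chemokines and proteases. NDST4 encodes a member of the N-deacetylase and N-sulfotransferase family, enzymes of the Golgi that carry out the first modification of the growing chain and so set where later sulfate groups can be added. NDST4 is an enzyme acting on proteoglycans and not a proteoglycan itself. SPOCK3 encodes testican-3, a secreted proteoglycan related to SPARC that is known mainly from the brain and was described as an inhibitor of membrane-type matrix metalloproteinases. Only the 20 top DEGs had a symbol here. No identifier in the table comes with one, and the gene reference at hand (UU_Cfam_GSD_1.0) matched 0 identifiers. Other enzymes of the chain, other core proteins and markers of cell types outside the 20 top DEGs could therefore not be looked up. The labelled tissue was for the same reason not checked against cardiomyocyte markers. In that reference, NDST4 has 1 transcript model and lies between the named genes TRAM1L1 and UGT8, and SPOCK3 has 3 transcript models and lies between TLL1 and ANXA10, on another chromosome.

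The values are FPKM, fragments counted on a gene in relation to its length and to all fragments counted in the library, and are thus scaled for length and depth. The whole reads behind them could be worked out, and these reached from 15120163 per library in CPVA3 to 25592249 in CPVA2. CPVA2 stood apart from the other libraries. It was the highest of the 10 libraries for 377 of the 19222 genes whose mean FPKM was 0.1 or more (1.96%) and the lowest for 215 of the 16809 of these genes with reads in every library (1.28%), the smallest counts of any library in both cases. Each library was also fitted as a non-negative weighted sum of the other 9, without the 20 top DEGs. The median absolute log2 difference between CPVA2 and its weighted sum was 0.10, against 0.20 to 0.43 for the other libraries. The largest weights for CPVA2 were 0.379 for CPVA5, 0.249 for CPVA3 and 0.186 for CPVA4. Why CPVA2 lay between other CPVA libraries was not tested, and the group means, ratios and fold changes, the correlation of the members and the counts of similar genes are also given without it.

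NDST4 was detected almost entirely in CPVA5 and CPVA2. It had 0.680 FPKM in CPVA5, 0.337 FPKM in CPVA2, 0.0380 FPKM in CPVA3, 0.0287 FPKM in CPVA4 and 0 in CPVA1. In the control group it had 0.0112 FPKM in Control3 and 0 in Control1, Control2, Control4 and Control5. These values rest on 53 reads in CPVA5, 30 in CPVA2, 2 each in CPVA3 and CPVA4, and 1 in Control3. CPVA5 and CPVA2 thus held 83 of the 88 reads of the gene (94.3%). By the exact 95% Poisson interval, a count of 0 in CPVA1 allows up to 3.69 reads, or 0.0520 FPKM, which is above the values of CPVA3 and CPVA4.

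SPOCK3 was also highest in CPVA5 and next in CPVA2, at a higher level per length. It had 2.98 FPKM in CPVA5, 1.56 FPKM in CPVA2, 0.774 FPKM in CPVA3, 0.113 FPKM in CPVA4 and 0 in CPVA1. Among the control libraries it had 0.0739 FPKM in Control4, 0.0190 FPKM in Control5 and 0 in the other 3. The reads were 177 in CPVA5, 106 in CPVA2, 31 in CPVA3 and 6 in CPVA4, against 4 in Control4 and 1 in Control5. CPVA5 and CPVA2 held 283 of its 325 reads (87.1%). Unlike NDST4, SPOCK3 therefore had reads in CPVA3 well above those of the control libraries.

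**Figure D1:**
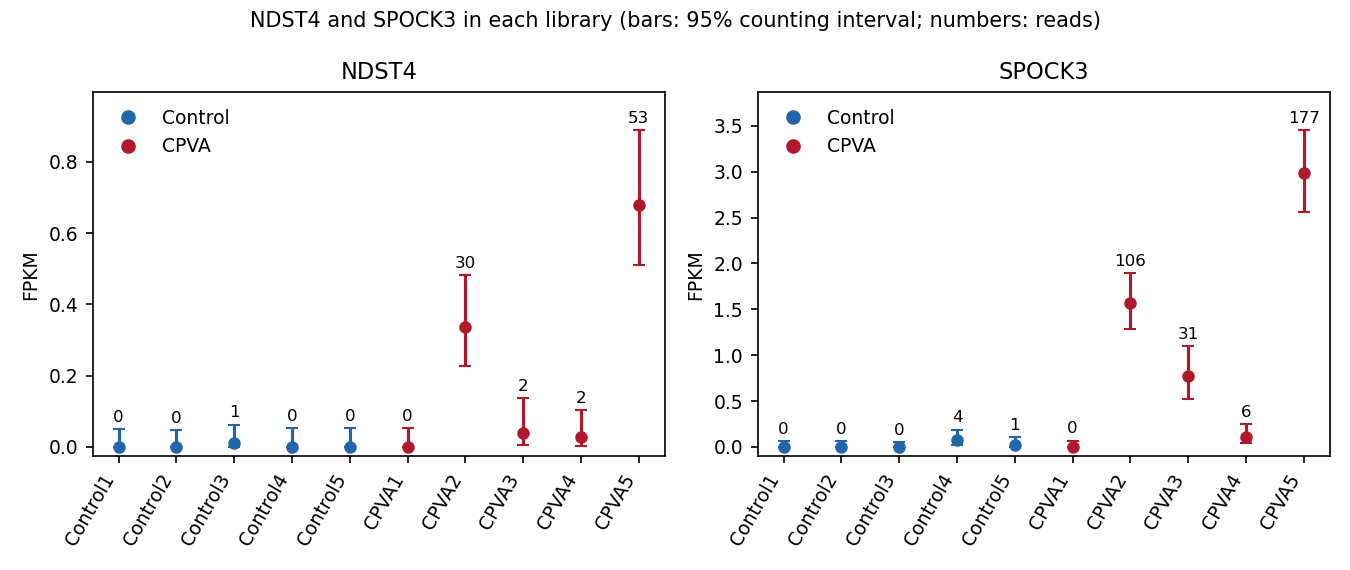
FPKM of NDST4 (left) and SPOCK3 (right) in each of the 5 control and 5 CPVA libraries, with exact 95% Poisson intervals of the reads as bars and the number of reads above each point. CPVA5 (53 and 177 reads) and CPVA2 (30 and 106 reads) stand above all other libraries for both genes, and CPVA3 (31 reads) stands above the control libraries for SPOCK3.

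Exact 95% Poisson intervals of the reads were used to read the order of the libraries. They account for counting error alone, as reads copied by PCR do not stand for separate molecules. For NDST4, the interval of CPVA5 (0.509 to 0.889 FPKM) did not overlap that of CPVA2 (0.227 to 0.481 FPKM), which lay above that of CPVA3 (0.00461 to 0.137 FPKM). The intervals of CPVA3, CPVA4, Control3 and the 5 libraries at 0 overlapped, so that no order among these 8 libraries can be given. For SPOCK3, CPVA5 (2.56 to 3.45 FPKM), CPVA2 (1.28 to 1.89 FPKM), CPVA3 (0.526 to 1.10 FPKM) and CPVA4 (0.0416 to 0.247 FPKM) each had an interval apart from the next. The interval of CPVA4 overlapped those of Control4 (0.0201 to 0.189 FPKM) and of the other 5 libraries. With the low libraries taken as 1 level, 4 levels can therefore be told apart for SPOCK3 at this depth, and 3 for NDST4.

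Both genes lay below the median gene even in CPVA5. There, NDST4 lay above 23.8% of the 19222 genes and SPOCK3 above 45.4%, where the median gene had 3.84 FPKM. Their mean FPKM over the 10 libraries, 0.1095 for NDST4 and 0.5525 for SPOCK3, was higher than that of 1.04% and 19.0% of the genes tested. NDST4 thus passed the filter of 0.1 FPKM by a small margin, and it passed only through CPVA5 and CPVA2.

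The CPVA and control groups overlapped for both genes, because CPVA1 had 0 reads of either. The mean of NDST4 was 0.217 ± 0.293 FPKM after CPVA and 0.00225 ± 0.00502 FPKM in the controls (SD, n = 5 canines per group), and that of SPOCK3 was 1.09 ± 1.23 and 0.0186 ± 0.0320 FPKM. The SD of each CPVA group was larger than its mean. Both genes had 4 of 5 CPVA libraries above the highest control value. The counting interval lay apart from that of this control library in CPVA5 and CPVA2 alone for NDST4, and in CPVA5, CPVA2 and CPVA3 for SPOCK3. Without CPVA2, the CPVA means were 0.187 ± 0.329 FPKM for NDST4 and 0.967 ± 1.39 FPKM for SPOCK3 (SD, n = 4), with 3 of 4 libraries above the highest control. On the log2(FPKM + 0.1) scale, which understates the change of low genes, the difference between the groups in limma was 1.15 for NDST4 (standard error 0.567) and 2.43 for SPOCK3 (standard error 0.838). A gene was called where its limma p, adjusted after Benjamini-Hochberg, was below 0.05 and its log2 difference was 1 or more in either direction. None of the 19222 genes was called (0 genes, 0%). This count is given as background and not as a test of the members, which were chosen on this contrast. Where p was left unadjusted, limma called 662 genes (3.44%), and limma voom on the whole reads called 0 genes with and 620 genes without adjustment. In bulk tissue such as this, a change in the number of cells of a type and a change in RNA per cell cannot be told apart.

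The ratio of the groups was also taken from the pooled reads, in relation to the pooled library totals. Its exact intervals cover counting error and leave out the spread between canines. NDST4 had 87 reads in the CPVA group and 1 in the control group, a ratio of 92.3 with an exact 95% interval of 16.1 to 3687. Without CPVA5 it was 46.0 (7.72 to 1871), and without CPVA2 it was 80.3 (13.8 to 3228). Without both of these libraries, 4 reads in the remaining 3 CPVA libraries stood against 1 in the control group, a ratio of 7.91 whose interval reached from 0.783 to 389.7. A difference in NDST4 outside CPVA2 and CPVA5 was therefore not detectable at this depth.

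For SPOCK3, 320 reads in the CPVA group stood against 5 in the control group, a ratio of 67.9 (28.8 to 210.5). This ratio was 38.7 (16.2 to 121.1) without CPVA5 and 60.3 (25.4 to 187.7) without CPVA2. Without both it was 14.6 (5.74 to 47.7), from 37 reads of which 31 were in CPVA3. These intervals cover counting error and not the spread between canines, and CPVA1 was among the remaining libraries with 0 reads.

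The relation of the members to each other was followed per length. SPOCK3 had 4.38 times the FPKM of NDST4 in CPVA5 (exact 95% interval 3.21 to 6.08) and 4.64 times in CPVA2 (3.07 to 7.21), so the ratio between the genes differed by less than the counting error in the libraries that held most of their reads. In CPVA4 it was 3.94, with an interval of 0.704 to 39.9 from 6 and 2 reads. CPVA3 had a ratio of 20.4 (5.18 to 175.5), from 31 and 2 reads, and its interval still overlapped that of CPVA5. Relative to CPVA5, SPOCK3 reached 0.260 in CPVA3 (0.171 to 0.382) and NDST4 reached 0.0559 (0.00660 to 0.212). Over the 10 libraries, log2(FPKM + 0.1) of the genes had a Pearson r of 0.918 and FPKM had a Spearman rho of 0.827. These were 0.891 and 0.753 without CPVA2, and 0.838 and 0.625 over the 8 libraries without CPVA2 and CPVA5. The libraries at 0 tie in both genes, and the correlations are given as a description.

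The other 18 top DEGs had the opposite relation between CPVA5 and CPVA3. The FPKM of CPVA5 was 17.9 times that of CPVA3 for NDST4 (exact 95% interval 4.71 to 151.5) and 3.85 times for SPOCK3 (2.62 to 5.84). For the other 18 genes it ranged from 0, for CCL20 and IGLV2-33 with no reads in CPVA5, to 0.241 for EREG, with a median of 0.00184. As a share of the FPKM summed over the CPVA group, CPVA5 held 62.7% for NDST4 and 54.9% for SPOCK3, against 0% to 14.8% for the others, of which EREG, which encodes the growth factor epiregulin, was the highest. CPVA3 held 3.51% for NDST4 and 14.2% for SPOCK3, against 61.5% to 82.6% for the others. This difference was the reason for grouping the genes and was not tested.

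**Figure D2:**
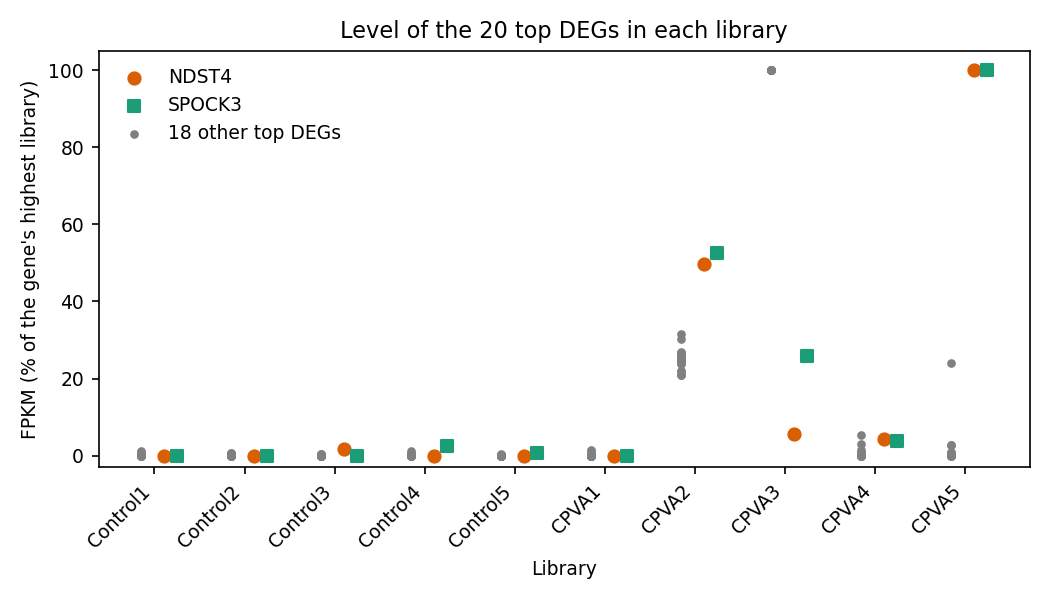
FPKM of each of the 20 top DEGs in each of the 10 libraries, as a percentage of the value in the gene's own highest library (1 point per gene and library). NDST4 and SPOCK3 are at 100% in CPVA5, while the other 18 genes are at 100% in CPVA3 and at most at 24.1% in CPVA5.

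The members also differed from the other 18 genes in level. The highest value of those genes ranged from 1.98 FPKM for EREG to 238.4 FPKM for the cytokine gene CSF3, with a median of 62.4 FPKM, so the highest value of NDST4 (0.680 FPKM) was below all of these, and that of SPOCK3 (2.98 FPKM) was above those of EREG and BNC1 alone. In CPVA5, where the members were highest, the other 18 genes had at most 1.19 FPKM (the chemokine gene PPBP), and 6 of them were above the highest control library there. Pearson r of log2(FPKM + 0.1) with the 18 genes ranged from 0.173 to 0.610 for NDST4 and from 0.490 to 0.860 for SPOCK3. EREG had the highest r and DNASE1L3, a nuclease gene, the lowest with both members. These correlations share the low values of the same control libraries.

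**Figure D3:**
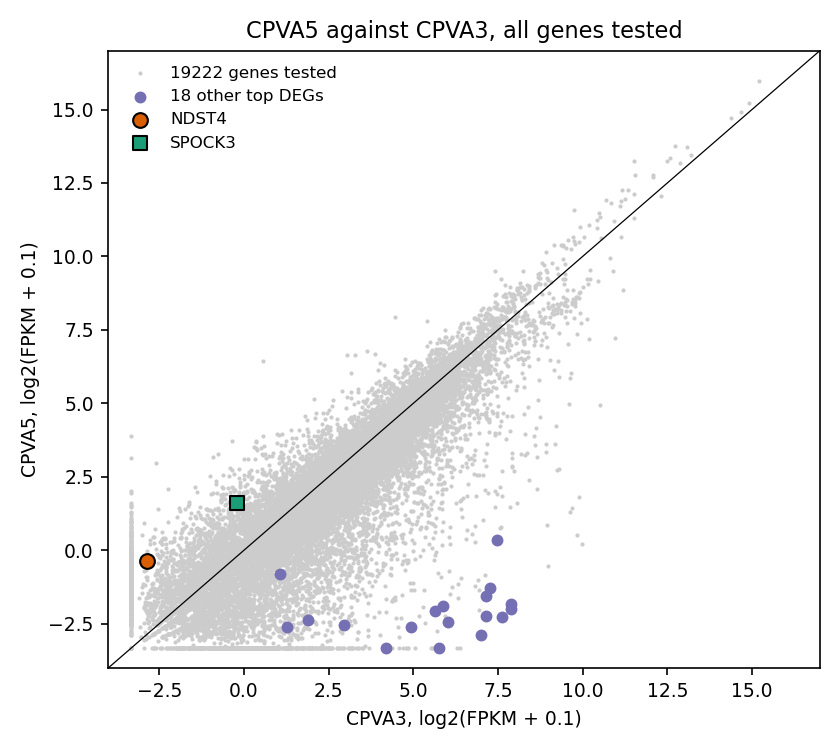
log2(FPKM + 0.1) in CPVA5 (vertical axis) against CPVA3 (horizontal axis) for the 19222 genes whose mean FPKM was 0.1 or more (grey), with NDST4, SPOCK3 and the other 18 top DEGs marked and the line of equal values drawn. The members lie above the line, with CPVA5 to CPVA3 ratios of FPKM of 17.9 and 3.85, and the 18 other genes lie below it.

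A level that is highest in CPVA5 was shared with many genes. Of the 19222 genes, 1663 (8.65%) reached their highest FPKM in CPVA5 and 7959 (41.4%) in CPVA3. Without CPVA2, 1729 genes were highest in CPVA5. Of the 1663 genes, 585 had their second highest value in CPVA2 (35.2%), as both members did, which is 3.04% of the genes tested. A narrower set was made of genes with at least 20 reads in CPVA5 and at least 5 times the FPKM of each other library except CPVA2. It held 103 genes (0.536%). NDST4 was among them, at 17.9 times the highest of the 8 other libraries, which was CPVA3 with 2 reads (exact 95% interval 4.71 to 151.5). Only 4 of the 14501 genes with at least 20 reads in CPVA5 had a higher ratio. The members were chosen for being highest in CPVA5, so their ranks are a description. SPOCK3 was outside the set, at 3.85 times (2.62 to 5.84), because of its level in CPVA3, and ranked 150 of the 14501 genes. The intervals of both members held the limit of 5 times, so counting error does not place them on different sides of it. The genes next to the limit had ratios of 5.06 and 4.99. The same conditions held for 743 genes in CPVA3, 17 of them top DEGs, and for at most 4 genes in each of the other libraries.

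The level of NDST4 and SPOCK3 in CPVA2 was near that of other genes high in CPVA5. CPVA2 had the second highest value for 99 of the 103 genes high in CPVA5, and its FPKM was 0.500 of that of CPVA5 at the median, with quartiles of 0.448 and 0.555. For NDST4, this ratio was 0.496 (exact 95% interval 0.306 to 0.790), and for SPOCK3, which is not in the set, it was 0.524 (0.408 to 0.671). In the 743 genes high in CPVA3, by contrast, CPVA2 had a median of 0.280 of the level of CPVA3 (quartiles 0.251 and 0.318), and it had the second highest value for 734 of them. CPVA2 was exempt from the limit set on the 8 other libraries, which favours it as the second highest in both sets. The other 18 top DEGs had 0.209 to 0.316 of the level of CPVA3, and all of these ratios were below the interval of SPOCK3. The interval of NDST4 began at 0.306, below the highest of them. The fold limits of these sets did not use CPVA2, which entered only through the filter on the mean FPKM of the 10 libraries. With this mean taken over the other 9 libraries, a choice made after seeing the data, the sets held 95 and 740 genes with medians of 0.500 and 0.280. NDST4 then left the set, as its mean of 0.0842 FPKM was below the filter.

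**Figure D4:**
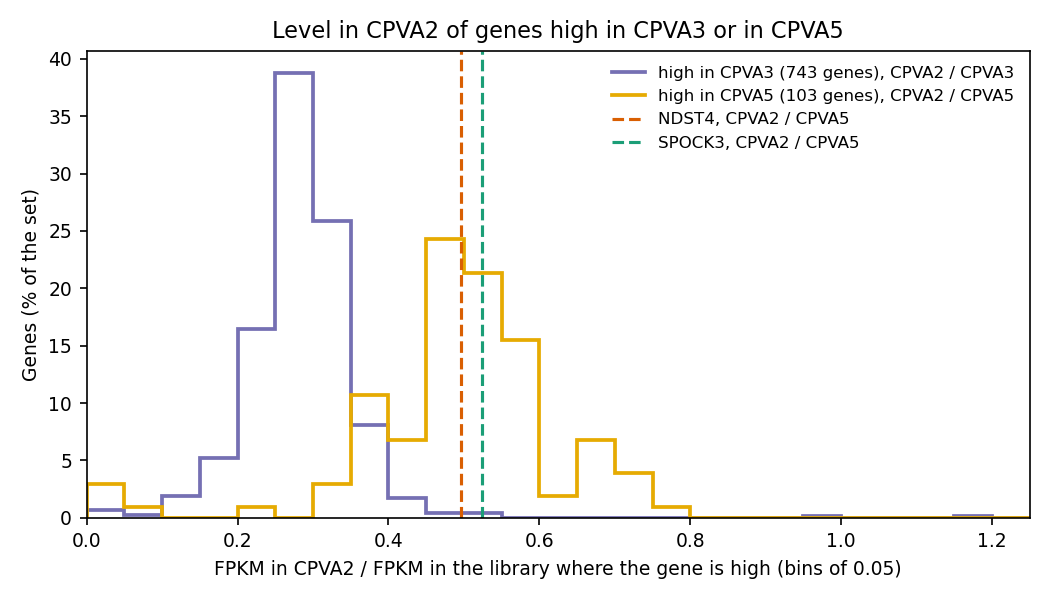
Histogram of the FPKM of CPVA2 divided by that of the library in which the gene is high, for 103 genes high in CPVA5 and 743 genes high in CPVA3, as a percentage of each set in bins of 0.05. The dashed lines mark NDST4 (0.496) and SPOCK3 (0.524), which lie near the median of the genes high in CPVA5 (0.500) and above that of the genes high in CPVA3 (0.280).

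The weighted sum of the other libraries, which was fitted on 19202 genes without the top DEGs, was applied to the members. It gave 0.273 FPKM for NDST4 in CPVA2, equal to 24.3 reads, where 30 reads were counted, and this value lay within the counting interval of CPVA2 (0.227 to 0.481 FPKM). For SPOCK3 it gave 1.35 FPKM, or 91.4 reads, where 106 were counted, again within the interval (1.28 to 1.89 FPKM). The values computed from the other 9 libraries thus lay within the counting intervals of CPVA2 for both members, and both were below the values counted. These intervals are wide for so few reads and leave out the error of the weighted sum itself. How CPVA2 came to lie near its weighted sum, and whether CPVA2 and CPVA5 are separate observations of these genes, was not tested. Leaving out CPVA2 lowered the log2 fold change in limma to 0.92 for NDST4 and 2.08 for SPOCK3, and leaving out CPVA5 lowered it to 0.71 and 1.86. Without both it was 0.25 and 1.20.

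The genes with the most similar pattern were searched by Pearson r of log2(FPKM + 0.1) over the 10 libraries. An r of at least 0.9 was found for 119 genes with NDST4 (0.619% of the other genes tested) and for 233 genes with SPOCK3 (1.21%), and none of the other top DEGs was among either. The lists shared 78 genes, 65.5% of the list of NDST4 and 33.5% of that of SPOCK3. Of these genes, 116 of 119 and 219 of 233 were highest in CPVA5, and CPVA2 had the second highest value for 116 and 186, which the choice by r with the members largely fixes. The number for NDST4 fell to 38 without CPVA5 and rose to 262 without CPVA3 and to 181 without Control4, while that for SPOCK3 ranged from 207 to 327 with 1 library left out. Without CPVA2 the numbers were 85 and 207. With 79 genes more like NDST4 than SPOCK3 was, and 189 genes more like SPOCK3 than NDST4 was, the members were not each other's nearest genes.

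By the mean of its r with both members, the most similar gene was ENSCAFG00000005077 (r of 0.978 with NDST4 and 0.968 with SPOCK3), which carries no symbol in the table. It had 35 reads in CPVA5, 21 in CPVA2, 4 in CPVA3, 2 in CPVA4, 1 in Control2 and 0 in the other 5 libraries. The next was ENSCAFG00000019906 (0.984 and 0.961), with 85 reads in CPVA5, 47 in CPVA2, 11 in CPVA3, 10 in CPVA4 and 5 in CPVA1, and 4 to 7 reads in each control library. Both were chosen for this likeness. Unlike the members, ENSCAFG00000019906 was detected in each of the 10 libraries.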

How the data were processed

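RNA-seq libraries of 5 CPVA and 5 control canines were analysed. The authors deposited 1 FPKM value per gene and library, scaled for gene length and library total. The submitters' processing notes name CASAVA, HISAT2, featureCounts and CanFam3.1, without versions. Strand was not given in the sources used here. The 10 columns were matched to samples by name. Each FPKM is a whole number of reads over a length and a total, so the reads, lengths and totals were worked out from the ratios between libraries. This gave whole reads and a whole length (within 1e-06) for all 27638 genes with reads, with the smallest reads that the values allow for genes seen in few libraries. The length was 3478 bases for NDST4 and 2649 for SPOCK3.

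log2(FPKM + 0.1) was compared with limma 3.58.1 in R 4.3.3 (trend) for genes whose mean FPKM was 0.1 or more, as FPKM values are not counts, and DESeq2 was not run. Intervals are exact Poisson (1 library) or exact conditional binomial (ratios), at 95%, from scipy 1.17.1 in Python 3.11.15. The weighted sums used non-negative least squares, with weights of 1/sqrt(mean FPKM + 0.1). The fits and the recovery of reads were tested on simulated data. Identical values were found in 0 pairs of libraries, and each was taken as 1 canine. The members, the symbols (from the list of 20 top DEGs), the rule for named genes (the members, extremes of the other 18, and the 2 identifiers most like the members) and the comparisons were chosen with earlier results of these data known. The sets high in 1 library and the weighted sums were chosen after seeing the data. Lists of heparan sulfate genes, SPARC relatives, core proteins, cell type markers and promoter motifs were not scored here.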

Additional observations from a re-analysis of the deposited data

Results flagged for a closer look

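In the control group, the gap between the highest library (Control3 for NDST4, Control4 for SPOCK3) and the next was 1.0 of the range of the group for NDST4 and 0.743 for SPOCK3, above the 95% limit of Dixon's test for a group of 5, 0.71. With 4 libraries at 0, the gap of NDST4 is fixed by a single read, and that of SPOCK3 rests on 4 reads. The counting intervals of the control libraries overlapped for both genes. In the CPVA group, the gap between CPVA5 and CPVA2 was 0.504 of the range for NDST4 and 0.476 for SPOCK3, below this limit. These are 2 of 4 groups tested. Chance flags about 1 in 20 where values are normally distributed, which groups mostly at 0 are not. The flags can therefore not be set against that rate. In the CPVA group, the top library was CPVA5, for which the members were chosen.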

How the results depend on the processing

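The log2 fold changes of both members stayed above 0 under each alternative run. That of NDST4 was 2.87 with a pseudocount of 0.01, 0.25 with a pseudocount of 1 and 3.30 with limma voom, and ranged from 0.71 to 1.45 with 1 library left out. That of SPOCK3 was 4.17 with a pseudocount of 0.01, 0.84 with a pseudocount of 1 and 4.41 with limma voom, and ranged from 1.86 to 3.096 with 1 library left out. With CPVA2 and CPVA5 both left out they were 0.25 and 1.20. The number of genes called between the groups was 0, and it was 1 with a pseudocount of 0.01 or median-of-ratios scaling, 662 at an unadjusted p under 0.05, and 0 to 4 with 1 library left out (4 without CPVA1, 3 without Control4, 2 without CPVA3, and 1 each without Control1, Control3 and CPVA5). With the replicate block it was 0, and the log2 fold changes were 1.15 and 2.43. Libraries were not paired by their replicate numbers, as the study assigned separate canines to the groups at random. The deviations from the group means of same-numbered libraries had correlations from -0.198 to 0.0893.

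The 119 genes like NDST4 became 58 and 229 with a pseudocount of 0.01 and 1, 201 without a filter, 30 at a mean FPKM of at least 1, 23 by Spearman rho, and 38 to 262 with 1 library left out. The 233 genes like SPOCK3 became 93 at a mean FPKM of at least 1, 112 by Spearman rho, and 207 to 327 with 1 library left out. With both CPVA2 and CPVA5 left out, which was chosen after seeing the data, they became 1243. The number of genes highest in CPVA5 was 1053 at a mean FPKM of at least 1, which tests fewer genes, and 1711 to 2058 with another library left out. The genes high in CPVA5 fell from 103 to 12 at 10 times in place of 5, and numbered 95 with the filter taken without CPVA2. With median-of-ratios scaling, the CPVA5 to CPVA3 ratio was 22.8 for NDST4 and 4.91 for SPOCK3. What caused the remaining changes was not tested. The fold changes at a mean FPKM of at least 1 could not be fitted, as neither member reaches it.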
